A study of Mus musculus with 24 samples.

Results

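The C2 mutant of NIPBL was compared with the empty vector in mouse 3134 cells, a mammary adenocarcinoma line, with ethanol and dexamethasone taken as blocks. The comparison held 8 of the 24 libraries of the series, chosen by their labels alone. They were 2 C2 and 2 empty-vector (EV) libraries in ethanol, the vehicle, and 2 of each after 2 hours of 100 nM dexamethasone. All cells carried a short hairpin against NIPBL that isopropyl thiogalactoside (IPTG) switches on, plus a construct brought in by piggyBac transposition. All were held for 3 days in charcoal-stripped serum, and the 8 libraries compared had 1 mM IPTG. The reference groups, of 2 libraries in each treatment, were wild-type NIPBL (WT), the C1 mutant and the C1C2 construct with IPTG, and EV without IPTG, where the hairpin is off. The labels do not say what C1 and C2 change in the protein. The design names 1 line per construct, so the effect of the construct and of the line that carries it cannot be told apart. No group had IPTG without the hairpin.

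NIPBL pairs with MAU2 to form the cohesin loader, which helps the cohesin ring extrude loops of chromatin. Clustered protocadherin genes are well known for depending on such loops for contact between their promoters and distant enhancers. Nr3c1 encodes the glucocorticoid receptor, a transcription factor that dexamethasone, a synthetic steroid, activates. A gene that the hairpin lowered and that a construct brings back up is called restored in such a rescue design.

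Depth was 32532858 to 40610136 counts in the 4 ethanol libraries and 49308873 to 64233056 counts in the 4 dexamethasone libraries. Of the 8, replicate 2 of C2 lay farthest from EV. The second principal component (9.48% of the variance) separated the constructs. It placed EV at 5.29 to 9.49 and C2 at -1.30 and -3.96 for replicate 1 but -12.8 and -12.0 for replicate 2. The first component, with 74.0% of the variance, separated the treatments. Deviations of replicate 1 from replicate 2 in ethanol and in dexamethasone correlated at 0.43 over genes in C2 and at 0.04 in EV, so libraries of C2 with the same number moved together in both treatments. The labels do not say whether they share a culture. The epithelial markers Epcam, Csn2, Wap and Pgr had no count, and Cdh1 did not pass 0.0808 CPM (counts-per-million). Vim and Col1a2, which fibroblasts and mesenchymal cells express, reached medians of 3920 and 1676 CPM. Of the same list, Pdgfrb, S100a4, Pdgfra, Twist1 and Prrx1 had medians of 136, 54.2, 45.6, 14.5 and 13.0 CPM. Col1a1 had 1.29 CPM, Col3a1 0.0605 CPM, Acta2 0.00791 CPM and Dcn 0. Of the other mammary markers, Krt5 and Krt18 had medians of 0, while Gata3, a luminal transcription factor, and Krt14, a basal keratin, had medians of 52.5 and 14.9 CPM, Esr1 4.30 CPM and Csn3 2.60 CPM. The defining epithelial markers of the labelled tissue were thus partly absent. The summed fibroblast list, most of it from Vim and Col1a2, was 5680 to 6018 CPM in C2 and 5814 to 6070 CPM in EV (Lum, Thy1 and Fap at 0). The summed mammary list was 52.3 to 104 CPM in C2 and 53.7 to 96.8 CPM in EV. Immune markers summed to 9.32 to 12.6 CPM in C2 and 11.8 to 14.7 CPM in EV (Adgre1, Itgam and Cd3e at 0), and endothelial markers to no more than 1.22 CPM in any of the 8 (Kdr and Emcn at 0). In bulk RNA, fewer cells of a type and less RNA per cell cannot be told apart.

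Nipbl itself read 65.1 and 62.6 CPM in the 2 EV ethanol libraries and 54.4 and 56.5 CPM in the 2 EV dexamethasone libraries. In C2 it read 61.0 and 56.2 CPM in ethanol and 53 and 48.0 CPM in dexamethasone. C2 lay below EV within each treatment, but the difference was -0.13 on the log2 scale (SE 0.07, adjusted p = 0.367). Without IPTG the mean was 181 CPM in ethanol and 153 CPM in dexamethasone, and the C2 minus EV without IPTG difference was -1.61 (adjusted p = 1.43e-11). Whether construct transcripts are counted under Nipbl is not given in the sources used here, so the amount of C2 protein or RNA is not known from these values. Mau2, the loader's partner subunit, differed by -0.07 (adjusted p = 0.401) and Nr3c1 by 0.05 (adjusted p = 0.441). Adjusted p-values here and below are Benjamini-Hochberg values over 16934 genes from edgeR's quasi-likelihood test.

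C2 differed from EV in many genes by small amounts. At an adjusted p under 0.05, 655 genes (3.87% of those tested) were called, 357 higher (2.11%) and 298 lower (1.76%). Of the 655, 546 (83.4%) differed by less than 1.5-fold, and 22 were at least 2-fold higher (0.130% of the genes tested) and 43 at least 2-fold lower (0.254%). Each of the 655 had the same sign in ethanol and in dexamethasone, which their choice by the mean of the 2 differences favours. The single treatments gave 38 calls in ethanol (0.224%) and 109 in dexamethasone (0.644%), which fell to 14 without EV ethanol replicate 1, 16 without C2 ethanol replicate 2 and 24 without EV ethanol replicate 2, and to 37, 50 and 54 without EV dexamethasone replicate 2, C2 dexamethasone replicate 2 and EV dexamethasone replicate 1. The test of a different C2 effect in the 2 treatments called 0 genes with edgeR, where 347 had an unadjusted p under 0.05, and 0 with DESeq2, where 174 did. Both counts are below 0.05 of the 16934 genes, the share that such a threshold gives without any difference. The test may thus be conservative, and 0 calls do not show that the effects were equal. The pooled test takes libraries with the same number in the 2 treatments as independent. When their counts were summed by construct and replicate number, a fit of 12 sums that was added after the data were seen, 66 genes were called higher and 77 lower, 140 of these 143 among the 655. All 655 kept their sign, which is no separate support because the sums hold the same counts. WT against EV gave 1464 calls (8.65%), and C1 against EV gave 243 (1.43%). These share the EV libraries with the C2 comparison. The number of C2 calls depends on single libraries: it ranged from 100 to 438 higher and from 86 to 377 lower over the 8 leave-one-out fits. The higher calls were 100 without EV dexamethasone replicate 2, 106 without C2 dexamethasone replicate 2, 111 without C2 ethanol replicate 2, 135 without EV ethanol replicate 2 and 177 without EV ethanol replicate 1. The lower calls without the same libraries were 91, 111, 86, 138 and 137.

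The genes named first were the 12 of largest fold in each direction among called genes with a mean of at least 1 CPM and with no overlap between C2 and EV in either treatment. Genes below that level, such as Pcdhgb8 (2.11), rose by more than some of them. The raised genes by this rule included the calcium channel genes Ryr2 and Cacna2d2 and the semaphorin gene Sema3c. Ryr2 (chr13:11553102-12106945, minus strand, mm10), which encodes a calcium release channel best known from heart muscle, read 0.152 and 0.0600 CPM in EV in ethanol and 0.162 and 0.101 CPM in dexamethasone. The C2 libraries read 2.01 and 1.91 CPM in ethanol and 1.76 and 2.10 CPM in dexamethasone. All 4 C2 libraries lay above all 4 EV libraries, by 3.99 log2 units (SE 0.25, adjusted p = 4.13e-10), from 372 counts in the 4 C2 libraries and 21 in the 4 EV libraries. WT stayed near EV with means of 0.139 CPM in ethanol and 0.162 CPM in dexamethasone, and EV without IPTG had 0.242 and 0.148 CPM. C1 had 0.993 and 0.855 CPM and C1C2 had 0.496 and 0.350 CPM. Ryr2 was thus higher in C2 than in WT (3.67, adjusted p = 1.75e-10) and than in EV without IPTG (3.35, adjusted p = 9.09e-11), so its level in C2 lay outside the range between EV with and without IPTG.

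Sema3c (chr5:17574281-17730268, plus strand), a secreted semaphorin that guides axons and migrating cells, read 13.9 and 12.9 CPM in EV in ethanol and 9.21 and 8.77 CPM in dexamethasone. C2 levels were 22.9 and 23.7 CPM in ethanol and 16.9 and 18.8 CPM in dexamethasone. Within each treatment both C2 libraries lay above both EV libraries, and the difference was 0.89 (SE 0.06, adjusted p = 1.92e-09). The level was lowest without IPTG, at means of 7.11 CPM in ethanol and 4.62 CPM in dexamethasone. C2 was therefore farther from the state without IPTG than EV was. Its relative Sema3a (chr5:13125414-13602565, plus strand) also rose, but in the direction of that state and past it. It read 7.06 and 7.5 CPM in EV in ethanol and 5.88 and 5.34 CPM in dexamethasone, against 11.2 and 11.7 CPM and 9.65 and 8.38 CPM in C2. The rise in C2 was 0.67 (SE 0.08, adjusted p = 1.11e-05), to above the 9.62 and 10.7 CPM seen in ethanol without IPTG. By treatment it was 0.65 in ethanol and 0.69 in dexamethasone, against 0.48 and 0.34 in EV without IPTG. WT, at 15.1 and 13.4 CPM in ethanol, lay above C2 and EV without IPTG.

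Ank2 (chr3:126921612-127499350, minus strand), the membrane adaptor ankyrin-B, read 23.4, 21.1, 22.5 and 20.5 CPM in EV, in the order ethanol 1 and 2, then dexamethasone 1 and 2. C2 gave 45.9, 40.4, 43.6 and 40.6 CPM in the same order. The groups did not overlap (0.96, SE 0.06, adjusted p = 7.67e-10), while WT had 18.8 and 19.4 CPM and EV without IPTG 24.6 and 23.0 CPM. Oasl1 (chr5:114923240-114937915, plus strand), an interferon-inducible gene of the oligoadenylate synthetase-like group, read 3.84 to 4.98 CPM over the 4 EV libraries and 7.24 to 8.11 CPM over the 4 C2 libraries (0.83, SE 0.10, adjusted p = 2.98e-05). It was lower without IPTG, at 2.09 CPM in ethanol and 1.78 CPM in dexamethasone. Antisense genes overlap Ank2 and Oasl1, and the strand setting of the counting is not given in the sources used here. Akap6, an anchoring protein for protein kinase A, rose by 0.73 (SE 0.10, adjusted p = 7.35e-05) from 4.57 to 5.39 CPM in EV to 6.85 to 9 CPM in C2, and without IPTG it read only 1.71 to 2.47 CPM. This gene was chosen after its values were seen.

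For other raised genes the direction in C2 was that of WT. Tpsab1 (chr17:25343245-25345562, minus strand), a mast cell tryptase, read 1.66 to 2.74 CPM in EV, 6.90 to 10.8 CPM in C2 and 15.1 to 20.7 CPM in WT. C2 exceeded EV by 1.81 (SE 0.26, adjusted p = 0.00251) and fell short of WT by a log2 difference of -1.15 (adjusted p = 0.00386, but 0.0602 over the 12 sums). Without IPTG it read 2.47 to 4.44 CPM, so WT and C2 both lay above the state with the hairpin off. Lncenc1 (chr13:97434970-97497007, plus strand), a long noncoding RNA, read 2.52 to 2.82 CPM in EV and 6.18 to 7.16 CPM in C2 (1.34, SE 0.11, adjusted p = 2.94e-08). WT means were 7.66 CPM in ethanol and 8.75 CPM in dexamethasone, and without IPTG it stayed at 2.34 and 2.25 CPM.

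Of the 12 raised genes by this rule, the others were the calcium channel subunit gene Cacna2d2 (1.57), Enpp5 (1.06), the SLAM family receptor genes Cd48 (1.00) and Slamf8 (0.80), Nlrp4f (0.91) and the cilia gene Cfap44 (0.81). WT was called higher than EV (4.19% of all genes were) for 5 of the 12, namely Tpsab1, Lncenc1, Cd48, Nlrp4f and Slamf8, and lower (4.45%) for Cacna2d2 and Enpp5. C1 was called higher (0.685%) for 5, namely Ryr2, Tpsab1, Cd48, Sema3c and Cfap44. These genes were chosen by C2 minus EV, so tests that share those EV or C2 libraries tend to the same side. The counts are a description. In the direct test, C2 lay above WT for 8 of the 12 (6.87% of all genes did) and below it (5.98%) for Tpsab1 and Cd48, though over the 12 sums neither was called below WT (Cd48 adjusted p = 0.0793). All 12 kept their call in each leave-one-out fit, and all but Tpsab1 (adjusted p = 0.0592 with edgeR) kept it over the 12 sums.

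Among the genes lowered in C2 that met this rule, Scara5 (chr14:65666403-65764826, plus strand), a scavenger receptor that binds ferritin, differed most. It read 4.71 and 5.04 CPM in EV in ethanol and 8.65 and 7.54 CPM in dexamethasone. Levels in C2 were 1.25 and 0.456 CPM in ethanol and 2.17 and 0.864 CPM in dexamethasone, replicate 2 being the lower in both. The difference was -2.43 (SE 0.27, adjusted p = 0.000264). Without IPTG the gene read 17.4 to 17.9 CPM in ethanol and 31.4 to 31.5 CPM in dexamethasone, so it fell with the knockdown and stood lower again in C2. WT differed from EV by 0.14 (adjusted p = 0.747), whereas C1 was lower by -2.17 (adjusted p = 0.000447). C2 and C1 differed by -0.26 (SE 0.34, adjusted p = 0.919), which is not a test that they are alike.

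Arhgap30 (chr1:171388954-171410298, plus strand), a GTPase-activating protein, read 3.51 to 4.26 CPM in EV and 0.902 to 1.54 CPM in C2 (-1.73, SE 0.15, adjusted p = 7.31e-08). WT was low as well, at means of 1.88 CPM in ethanol and 1.69 CPM in dexamethasone, while EV without IPTG was near EV with IPTG at 4.01 and 3.43 CPM. Depp1, a gene known to respond to stress and steroid hormones, read 1.67 and 2.16 CPM in EV in ethanol and 15.3 and 17.6 CPM in dexamethasone. C2 had 1.03 and 0.712 CPM in ethanol and 7.78 and 6.07 CPM in dexamethasone (-1.18, SE 0.16, adjusted p = 0.000124). Other genes among the 12 lowered by this rule were the adherens junction gene Plekha7 (-1.22), the disaccharidase gene Mgam (-1.22), the Polycomb-associated Sfmbt2 (-1.15), Echdc2 (-0.91), the tetraspanin gene Tspan32 (-0.89), Rassf4 (-0.72), Unc93b1 (-0.71) and the transcription factor gene Klf2 (-0.70). WT was called lower than EV for 5 of these 12 (4.45% of all genes were) and C1 for 6 (0.750%), with C1 higher for Mgam. C2 lay below WT for 7 of the 12 (5.98% of all genes). These counts too are a description, as the tests share libraries with the choice of genes. Rassf4 (adjusted p = 0.0364), Unc93b1 (0.0163) and Klf2 (0.0202) lost their call in 5, 5 and 4 of the 8 leave-one-out fits, with adjusted p up to 0.195, 0.112 and 0.145. All 3 lost it without replicate 2 of C2 in either treatment and without EV replicate 2 in either treatment, Rassf4 also without EV ethanol replicate 1 and Unc93b1 without C2 ethanol replicate 1. These 3 and Tspan32 lost it over the 12 sums as well (adjusted p = 0.185, 0.142, 0.102 and 0.0782 in the order Rassf4, Unc93b1, Klf2 and Tspan32).

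**Figure D1:**
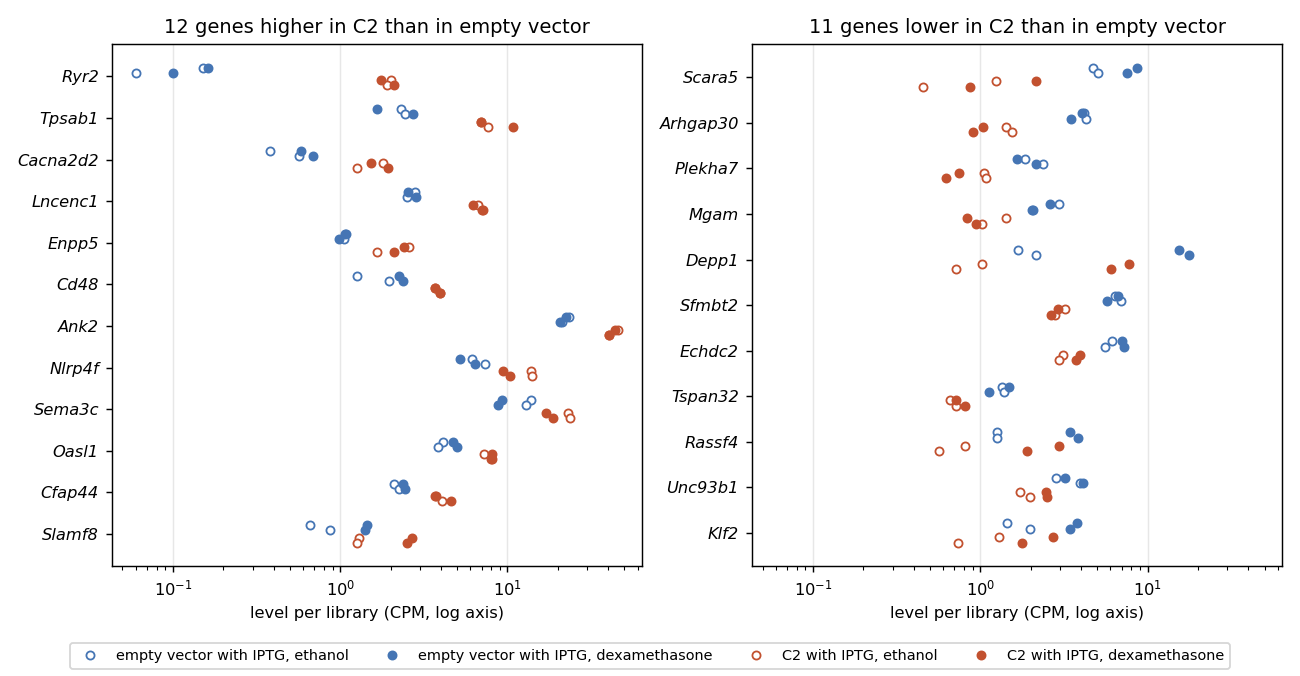
Level in CPM (log axis) of the 12 genes higher and 11 of the 12 genes lower in C2 than in EV, with 1 point for each of the 8 libraries (open, ethanol; filled, dexamethasone). By the rule that chose these genes, the C2 points of a treatment lie to one side of the EV points of that treatment, and Ryr2 and Scara5 show the widest gaps (3.99 and -2.43 on the log2 scale).

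To ask what C2 restores, genes that differed between EV without and with IPTG were chosen in one treatment and read in C2 in the other, whose libraries are separate. In ethanol 1057 genes were lowered by IPTG in EV (6.24% of those tested) and 1213 raised (7.16%). Read in dexamethasone, C2 was called toward the state without IPTG for 18 of the 1057 lowered genes and away from it for 7. Of the 1213 raised genes, 8 were called toward and 5 away. Expressed as shares, 1.70% of the lowered and 0.660% of the raised genes were called toward, where 0.343% of all genes were called higher and 0.301% lower in C2 in dexamethasone. Outside the knockdown genes, 0.239% were called higher and 0.245% lower. In the opposite reading, genes lowered (1438, 8.49%) or raised (1416, 8.36%) in dexamethasone were read in ethanol, where C2 was called toward for 5 and 3 genes and away for 1 and 4. There 0.124% of all genes were called higher and 0.100% lower. WT was called toward for 165 of the 1057 and 201 of the 1213 in dexamethasone, where 2.36% of all genes were called higher and 1.84% lower in WT. In ethanol it was called toward for 82 of the 1438 and 67 of the 1416, where 0.632% were called higher and 0.526% lower. It was called away for 3, 3, 1 and 2 genes of the same 4 sets. Over the leave-one-out fits the 4 C2 counts were 5 to 20, 0 to 9, 1 to 10 and 0 to 8 in the order lowered and raised in ethanol, then lowered and raised in dexamethasone. The count of 18 was 5 without C2 or EV dexamethasone replicate 2, 7 without EV dexamethasone replicate 1 or EV ethanol replicate 1, 9 without replicate 2 of EV in ethanol with or without IPTG, and 11 without replicate 1 of EV in ethanol without IPTG. The count of 8 was 0 without EV dexamethasone replicate 2, 1 without C2 dexamethasone replicate 2, 4 without replicate 1 of EV in either treatment and 5 without either ethanol library of EV without IPTG. The counts of 5 and 3 were 1 and 0 without C2 ethanol replicate 2, 10 and 8 without C2 ethanol replicate 1, and 1 and 1 without EV ethanol replicate 1. The first was also 3 without dexamethasone replicate 1 of EV without IPTG, and the second 1 without EV ethanol replicate 2 or any dexamethasone library of EV with or without IPTG.

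Few knockdown genes were called in C2, but more of them had a C2 difference with the sign of the state without IPTG than other genes did. Of the 1057 genes lowered in ethanol, 760 (71.9%) had a C2 difference toward that state in dexamethasone, with a median of 0.07 log2 units. The median over the same genes was 0.30 in EV without IPTG, 0.11 in WT, 0.06 in C1 and 0.03 in C1C2. These medians are all taken from the same 2 EV libraries. Of the 1213 raised genes, 869 (71.6%) had a difference toward that state, with medians of -0.06 in C2, -0.30 without IPTG, -0.16 in WT, -0.04 in C1 and -0.05 in C1C2. In ethanol the shares were 1003 of 1438 (69.7%) and 949 of 1416 (67.0%), with C2 medians of 0.05 and -0.05 against 0.25 and -0.29 without IPTG. Genes outside the knockdown calls had a median of 0.00, with 49.2% positive in dexamethasone and 50.5% in ethanol. Each C2 library on its own gave the same sign. The medians of the lowered genes were 0.07 and 0.07 in dexamethasone and 0.07 and 0.03 in ethanol, and those of the raised genes -0.06 and -0.05, and -0.04 and -0.07. The median of 0.07 was 0.043 without EV dexamethasone replicate 2.

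For lowered genes the C2 median stayed within 0.03 to 0.07 over the classes of knockdown change and was smallest in the largest. The WT median was larger in each class of larger change. Among genes lowered by under 1.25-fold in ethanol (n = 530), the medians in dexamethasone were 0.21 without IPTG, 0.07 in WT and 0.07 in C2, and 79.2% had a C2 difference toward that state. Among those lowered at least 2-fold (n = 96), they were 1.09 without IPTG, 0.55 in WT and 0.04 in C2, and 54.2% had one toward it. The direct test in dexamethasone called C2 below WT for 31 of these 96 genes and above WT for 0. The share of all genes called in dexamethasone alone is not given here. In the pooled test it was 5.98% below WT and 6.87% above. In the under 1.25-fold class the median C2 minus WT difference was 0.00, with 20 genes called beyond WT and 26 short of it. Among genes raised by under 1.25-fold in ethanol (n = 539), the medians in dexamethasone were -0.13 in WT and -0.04 in C2, with 3 genes called beyond WT and 65 short of it. For genes lowered at least 2-fold in dexamethasone (n = 138) and read in ethanol, the medians were 0.95 without IPTG, 0.60 in WT and 0.03 in C2. For raised genes the C2 median grew with the fold up to the class of 1.5 to 2-fold and was smaller again above it. Genes raised 1.5 to 2-fold in ethanol (n = 160) had medians in dexamethasone of -0.66 without IPTG, -0.24 in WT and -0.13 in C2, and those raised at least 2-fold (n = 162) had -1.19, -0.38 and -0.06. The 2 C2 libraries were -0.14 and 0.03 in this last class. The C2 medians of the 4 classes of at least 2-fold changed sign when 1 library was left out, spanning -0.04 to 0.13 and -0.01 to 0.07 for lowered genes and -0.14 to 0.05 and -0.15 to 0.04 for raised genes. The sign changed without C2 dexamethasone replicate 1 (lowered and raised in ethanol), EV dexamethasone replicate 2 (raised in ethanol, lowered and raised in dexamethasone), dexamethasone replicate 2 of EV without IPTG (lowered in dexamethasone), and C2 ethanol replicate 1 or EV ethanol replicate 2 (raised in dexamethasone). These size classes were added after the data were seen.

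**Figure D2:**
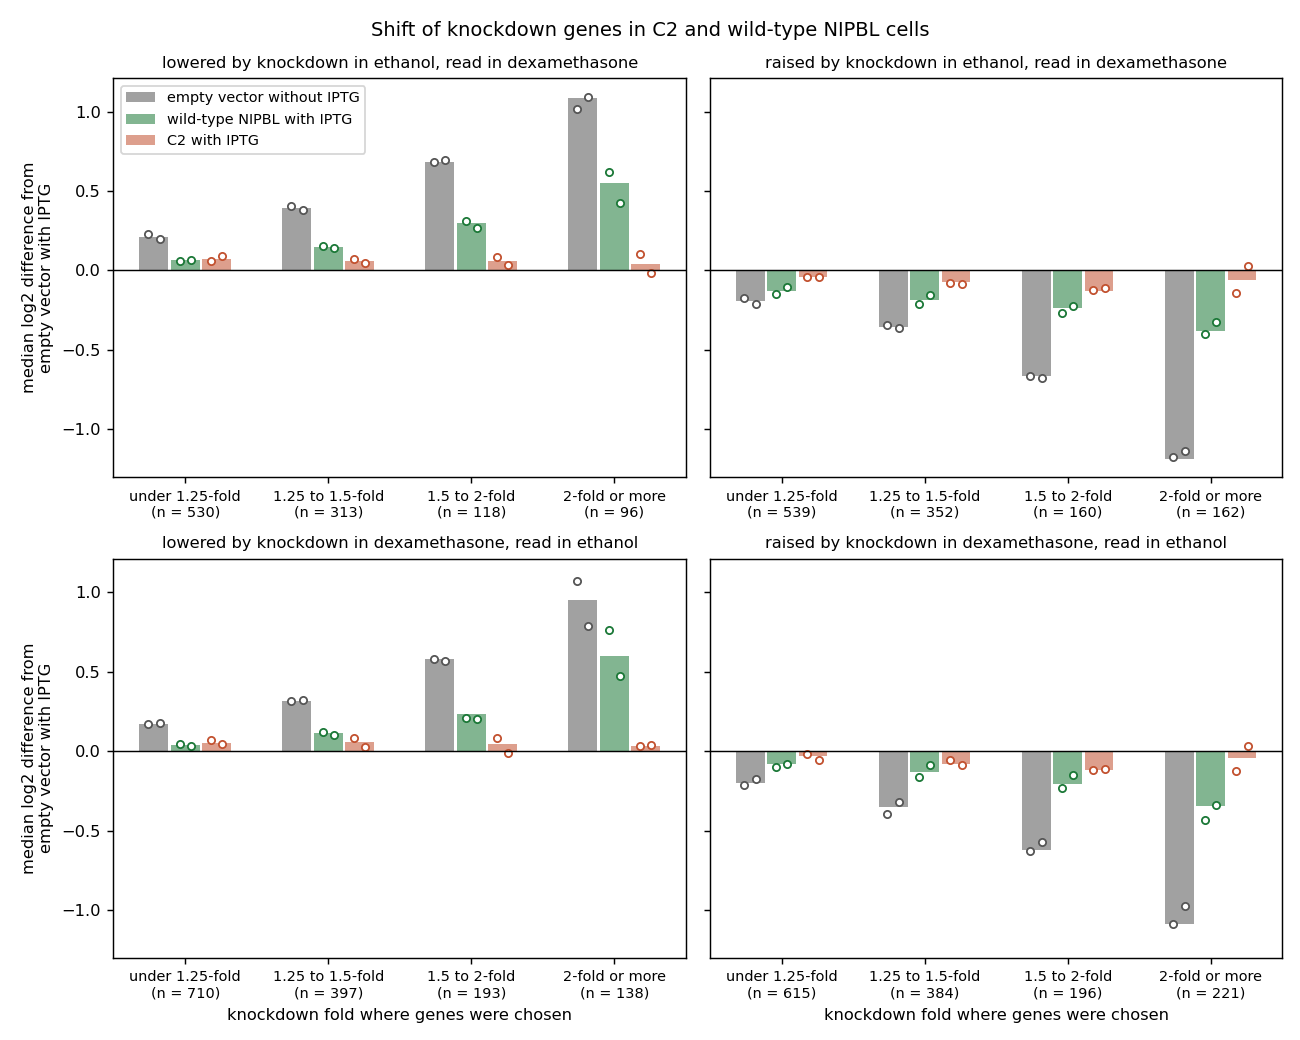
Median log2 difference from EV with IPTG of genes chosen as lowered or raised by knockdown in one treatment and read in the other, by the fold of the knockdown where they were chosen. Bars are group medians and open circles the 2 libraries of each group, and the C2 bars stay within 0.03 to 0.07 for lowered genes while the WT bars reach 0.55 and 0.60 in the class of at least 2-fold.

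The genes that C2 did bring toward the state without IPTG were named after their values were seen. Of the 18 lowered genes called toward in dexamethasone, 10 have histone symbols, and others were Cpne2, Fry, Itprip, Pcdhgb7, Pcdhgb8, Sema3a and Tuba1b. Fry, a large scaffold protein of mitotic spindles and cell morphology, read 41.3 and 42.5 CPM in EV in ethanol and 43.3 and 40.6 CPM in dexamethasone. The 4 C2 libraries read 56.2 and 64.0 CPM in ethanol and 54.6 and 61.2 CPM in dexamethasone, where the 4 libraries without IPTG read 52.8 to 59.3 CPM. The rise was 0.49 (SE 0.05, adjusted p = 6.71e-06), and C2 exceeded WT by 0.28 (adjusted p = 0.0013). Cpne2, a calcium-dependent membrane-binding copine, rose by 0.31 (adjusted p = 0.000103), from 34.9 to 41.9 CPM in EV to 45.1 to 49.6 CPM in C2, short of the 62.2 to 73 CPM without IPTG. Tuba1b, an alpha-tubulin, rose by 0.25 (adjusted p = 0.00104). The 8 raised genes called toward were Arhgef25, Chdh, Dctn6, Fam214b, Fcna, Pdgfrl, Peg13 and Shroom1, with Peg13, an imprinted noncoding RNA, at -0.31 (adjusted p = 0.00144) in the pooled test. Genes called away in dexamethasone were Hras, Rnf24, Scara5, Serpinb9f, Sh2d4a, Smpd2 and Srgap3 among the lowered and Akap6, Etl4, Oasl1, Psca and Sema3c among the raised. Serpinb9f, a granzyme inhibitor of the serpin family, read 4.95 to 5.85 CPM in EV, 3.10 to 4.19 CPM in C2, 8.16 to 10.7 CPM in WT and 10.2 to 11.5 CPM without IPTG (C2 minus EV -0.54, adjusted p = 0.00309).

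The 20 genes with the largest knockdown change in both treatments were described whatever C2 did. They were chosen with the same EV libraries, with and without IPTG, that C2 and WT are set against here, so these values are a description. Among the 10 most lowered, C2 was called toward the state without IPTG for 2, Pcdhgb7 and Pcdhgb8 (2.11% of all genes were called higher). It was called away from it for Scara5 (1.76% were called lower), and the median C2 difference was -0.02. WT was called toward for 8 of the 10 (4.19% of all genes were called higher) with a median of 1.07, and the median without IPTG was 1.98. Among the 10 most raised, C2 was called for 0 (median 0.16) and WT toward for 4 (4.45% of all genes were called lower, median -0.68). The median without IPTG was -2.55. By sign alone, C2 lay toward the state without IPTG for 5 of the 10 lowered and 3 of the 10 raised genes, and WT for 10 and 10. C2 was called short of EV without IPTG for all 20, a count that the choice of these genes favours (10.6% of all genes were called lower and 11.8% higher). It was called short of WT for 8 of the lowered (5.98% of all genes were called lower) and 5 of the raised genes (6.87% were called higher).

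Rapgef3, which encodes the cyclic AMP-activated exchange factor EPAC, read 11.5 and 10.5 CPM in EV in ethanol and 15.9 and 20.5 CPM in dexamethasone. C2 read 11.5 and 10.4 CPM in ethanol and 20.9 and 17.1 CPM in dexamethasone, overlapping EV in both (0.03, SE 0.09, adjusted p = 0.922). WT read 19.2 and 22.4 CPM in ethanol and 40.7 and 39.9 CPM in dexamethasone, above C2 in every library of the same treatment (relative to WT, C2 fell by 1.00 on the log2 scale, adjusted p = 5.57e-07). Antisense genes overlap Rapgef3. Gdf15, a stress-induced cytokine, had a C2 minus EV difference of -0.41 (adjusted p = 0.203), Thbs2, a matricellular protein, -0.12 (adjusted p = 0.835), and Ccl7, a chemokine, 0.42 (adjusted p = 0.225). Prl2c3, a prolactin family gene (proliferin) raised by the knockdown, read 21.6, 38.4, 25.7 and 29.6 CPM in EV and 26.9, 112, 34.7 and 61.8 CPM in C2, with replicate 2 of C2 the highest in both treatments. WT read 9.59 to 14.7 CPM and EV without IPTG 1.49 to 2.59 CPM. C2 minus EV was 1.00 (SE 0.43, adjusted p = 0.237) and C2 minus WT was 2.32 (adjusted p = 0.00716, but 0.0665 over the 12 sums). Proliferin genes form a family of close copies, so the split of reads among them is uncertain.

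**Figure D3:**
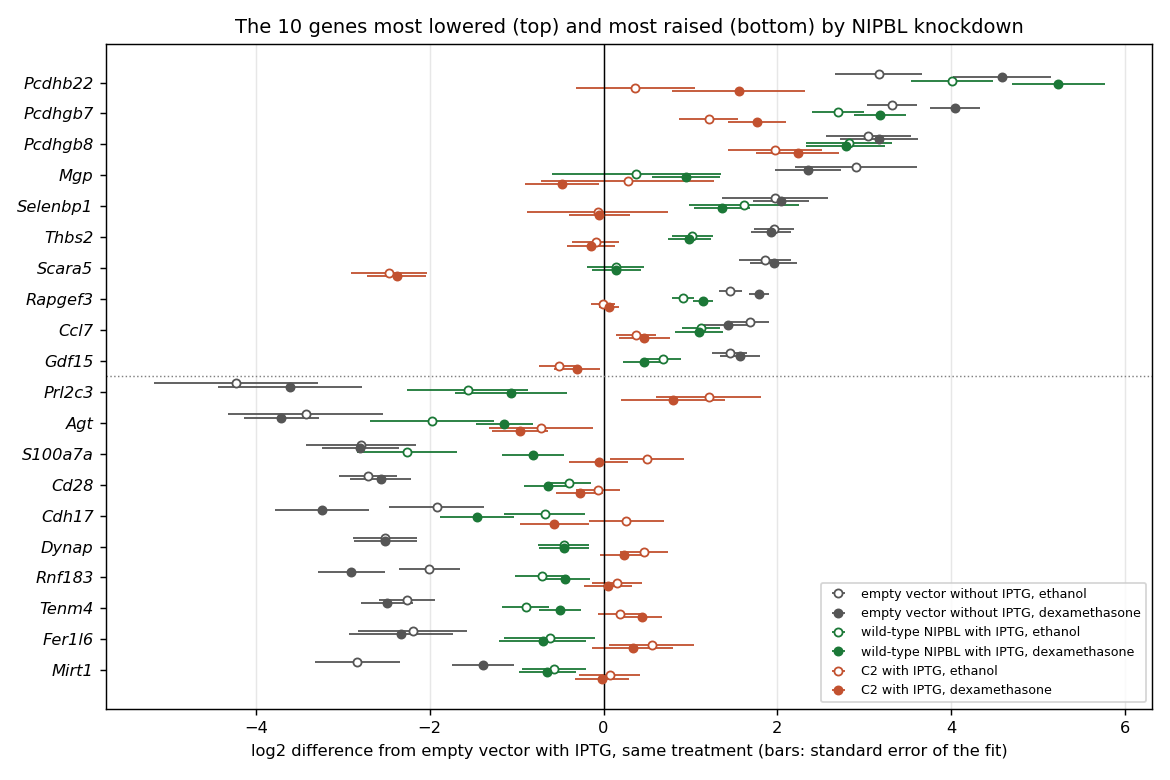
Log2 difference from EV with IPTG of the same treatment for the 10 genes most lowered and the 10 most raised by knockdown, in EV without IPTG, WT and C2, with bars for the standard error of the fit (open, ethanol; filled, dexamethasone). WT points lie on the side of the state without IPTG for all 20, whereas in the pooled test C2 lies on that side for 5 of the 10 lowered and 3 of the 10 raised genes, called for Pcdhgb7 and Pcdhgb8, and was called on the other side for Scara5.

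Clustered protocadherins, which encode neuronal adhesion molecules and of which 34 passed the filter, were higher in C2 for 2 genes (2.11% of all genes were) and lower for 0. Pcdhgb7 read 0.481 and 0.330 CPM in EV in ethanol and 0.202 and 0.323 CPM in dexamethasone. In C2 it read 1.25 and 0.627 CPM in ethanol and 1.14 and 0.639 CPM in dexamethasone, above EV in all 4 libraries (1.49, SE 0.24, adjusted p = 0.000679). WT read 2.39 to 2.68 CPM and EV without IPTG 4.09 to 4.49 CPM, so C2 lay below both. Within the same cluster, Pcdhgb8 rose by 2.11 (SE 0.36, adjusted p = 0.00142) from 0.0506 to 0.240 CPM in EV to 0.451 to 0.791 CPM in C2, on 23 and 116 counts in all. The median over the 34 in C2 was 0.28 and 0.136 to 0.182 without C2 ethanol replicate 1 or 2 or C2 dexamethasone replicate 1, where the median of all genes tested was 0.00. WT was called higher for 22 of the 34 (4.19% of all genes), with a median of 1.97, and C1 for 8 (0.685%). In the direct test C2 was below WT for 25 of the 34 (5.98% of all genes), with a median difference of -1.67. Gamma protocadherins share exons on 1 strand, so the counts of single members are uncertain.

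Against WT, 2177 genes differed (12.9%), 1164 higher (6.87%) and 1013 lower (5.98%) in C2, and 41 (0.242%) and 121 (0.715%) of these by at least 2-fold. Genes named here were the 5 of largest fold in each direction among called genes with a mean of at least 1 CPM and no overlap in either treatment. By this rule Slc4a5, a sodium bicarbonate cotransporter, stood lowest. It read means of 3.27 and 3.97 CPM in WT but 0.0158 to 0.0489 CPM in C2, on 5 counts in all, and 0.101 to 0.180 CPM in EV. It was thus near the floor in C2, and the fitted difference of -6.96 is set by very few counts. Scara5 (-2.57) and the beta protocadherins Pcdhb22 (-3.66) and Pcdhb14 (-1.65) were also among the 5 lowest by this rule, with Selenbp1 (-1.55). The 5 highest by it were Ryr2 (3.67), Prl2c3 (2.32), Enpp5 (1.90), S100a7a (1.76) and Cpne7 (1.76). Over the 12 sums 1028 genes differed from WT, Prl2c3 and S100a7a (adjusted p = 0.0561) not among them. Over the leave-one-out fits the number of genes that differed from WT ranged from 900, without C2 dexamethasone replicate 2, to 2727, without WT dexamethasone replicate 2, and it was 1224 without C2 ethanol replicate 2 and 1323, 1376 and 1302 without WT ethanol replicates 1 and 2 and WT dexamethasone replicate 1. Against EV without IPTG, C2 differed in 3787 genes (22.4%), 1996 higher (11.8%) and 1791 lower (10.6%).

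Replication-dependent histone genes, which are transcribed in S phase to package new DNA, were higher in C2 than in EV for most members tested. Of 28 tested, 16 were called higher and 0 lower, and all 28 had a positive difference (median 0.22, against 0.00 for all genes and 2.11% called higher). The list median was 0.07 and 0.22 in the 2 C2 ethanol libraries and 0.25 and 0.31 in the 2 dexamethasone libraries. Here too replicate 2 was the higher. The WT list medians were 0.14, 0.09, 0.02 and 0.08, with 0 members called against EV, and C2 exceeded WT in the direct test for 10 of the 28 (6.87% of all genes) with 0 lower. Without IPTG the list stood at 0.20, 0.22, 0.34 and 0.29. C2 was called different from that state for 2 members, 1 higher (11.8% of all genes were) and 1 lower (10.6%). Of the 8 histone genes that the knockdown lowered in ethanol, all 8 lay higher in C2 in dexamethasone (median 0.30, WT 0.09, without IPTG 0.36). Of these, 4 were called higher (0.343% of all genes were). Of the 22 lowered in dexamethasone, all 22 lay higher in ethanol (0.16, 0.11 and 0.20 in the same order) and 1 was called (0.124% of all genes). The count of 16 was 9 without C2 ethanol replicate 2 and 10 without C2 dexamethasone replicate 2 or either EV ethanol library, and 11 over the 12 sums.

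Hist1h4i (chr13:22040636-22041362, minus strand), a histone H4 gene, read 32.7 and 37.2 CPM in EV in ethanol and 31.1 and 31.2 CPM in dexamethasone. In C2 it read 51.8 and 53.5 CPM in ethanol and 46.2 and 47.7 CPM in dexamethasone, with no overlap between the groups (0.59, SE 0.05, adjusted p = 1.59e-07). C2 also exceeded WT by 0.50 and EV without IPTG by 0.34. Hist1h2bb (chr13:23746734-23747241, plus strand), a histone H2B gene, read 73.5, 74.9, 48.0 and 51.8 CPM in EV and 78.5, 85.4, 65.0 and 65.6 CPM in C2 (0.27, adjusted p = 0.00258). Hist1h2bj rose by 0.24 (adjusted p = 0.00293) and Hist2h3b by 0.23 (adjusted p = 0.00109). Histone genes have near-identical copies, so the split of reads among them is uncertain.

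Cell cycle and replication genes were higher in C2 as well. Of 25 tested, 13 were called higher (2.11% of all genes were) and 0 lower, and all 25 were positive (median 0.18). Over the 12 sums 0 of the 25 were called. The list medians were 0.11 and 0.24 in the C2 ethanol libraries and 0.08 and 0.22 in the dexamethasone libraries, so that replicate 2 of C2 was again the higher in both treatments. The count fell to 3 and 4 without C2 dexamethasone and ethanol replicate 2, to 4 without EV dexamethasone replicate 2, and to 7 and 6 without EV ethanol replicates 1 and 2. WT was called higher for 2 of the 25 (4.19% of all genes, list median 0.05), and C2 exceeded WT for 8 (6.87%) with 0 lower. The knockdown lowered 15 of the 25 in ethanol (6.24% of all genes) and 12 in dexamethasone (8.49%). Of the 15, 14 lay higher in C2 in dexamethasone (median 0.18, WT 0.10, without IPTG 0.26) and 0 were called. Of the 12, all 12 lay higher in ethanol (0.20, 0.09 and 0.30 in the same order) and 0 were called. Mcm6 (chr1:128331590-128359664, minus strand), a subunit of the replicative helicase, read 247, 238, 242 and 221 CPM in EV and 272, 285, 264 and 268 CPM in C2 (0.20, SE 0.04, adjusted p = 0.00404). WT means were 262 and 249 CPM, and those without IPTG 301 and 285 CPM. Ccna2, the S and G2 phase cyclin, rose by 0.20 (adjusted p = 0.00433), Mki67, a marker of cycling cells, by 0.22 (adjusted p = 0.00884), and Top2a, a DNA topoisomerase, by 0.15 (adjusted p = 0.00773), though Top2a missed the threshold without C2 dexamethasone replicate 2 (0.061). Over the 12 sums the adjusted p was 0.0539 for Mcm6, 0.0584 for Ccna2, 0.0601 for Mki67 and 0.105 for Top2a. Whether the share of cells in S phase differed was not measured in these libraries.

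The promoters of 3 genes of these lists are shown because their members moved together. They run from 250 bases before to 50 bases after the start, as RefSeq gives them on GRCm38.p6, and capitals mark matches on either strand to motifs known from such promoters. For the histone genes these were ATTTGCAT (the octamer), CCAAT and TATAAA, and for the replication gene TTTGGCGC and TTTCCCGC (E2F-type) and CCAAT. No 2 matches overlapped in these 3 promoters.
Hist1h4i (H4c9), chr13:22041313-22041612, minus strand: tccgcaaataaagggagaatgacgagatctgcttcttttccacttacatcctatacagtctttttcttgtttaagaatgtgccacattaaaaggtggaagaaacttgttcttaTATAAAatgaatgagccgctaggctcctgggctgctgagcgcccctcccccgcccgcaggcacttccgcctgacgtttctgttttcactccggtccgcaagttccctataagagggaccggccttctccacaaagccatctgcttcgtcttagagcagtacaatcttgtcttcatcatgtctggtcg
Hist1h2bb (H2bc3), chr13:23746484-23746783, plus strand: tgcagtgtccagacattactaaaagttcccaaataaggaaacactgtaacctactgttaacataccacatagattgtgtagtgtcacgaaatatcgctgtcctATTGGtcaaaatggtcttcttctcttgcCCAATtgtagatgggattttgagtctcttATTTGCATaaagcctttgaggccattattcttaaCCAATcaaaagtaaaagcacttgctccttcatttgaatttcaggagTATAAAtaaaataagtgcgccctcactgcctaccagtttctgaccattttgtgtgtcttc
Mcm6, chr1:128359656-128359955, minus strand: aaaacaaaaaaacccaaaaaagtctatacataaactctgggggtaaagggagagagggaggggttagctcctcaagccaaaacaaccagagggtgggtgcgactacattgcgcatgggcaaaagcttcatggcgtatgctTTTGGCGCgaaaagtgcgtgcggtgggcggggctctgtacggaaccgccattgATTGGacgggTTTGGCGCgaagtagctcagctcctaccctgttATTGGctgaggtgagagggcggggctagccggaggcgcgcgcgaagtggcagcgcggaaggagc
The Hist1h4i window held 1 TATAAA, the Hist1h2bb window 1 ATTTGCAT, 3 CCAAT and 1 TATAAA, and the Mcm6 window 2 TTTGGCGC and 2 CCAAT. Over the histone genes with a promoter in the table (24 of 28), CCAAT was present in 22 (91.7%), TATAAA in 16 (66.7%) and ATTTGCAT in 7 (29.2%). Over all 32851 promoters the shares were 37.4%, 13.6% and 1.74%. Over the cell cycle genes (21 of 25), TTTGGCGC was present in 4 (19.0%) and TTTCCCGC in 3 (14.3%), against 0.514% and 1.07% of all promoters. A match describes the letters at any position in the window and does not show that a factor binds there. The TATAAA of Hist1h4i lay well upstream of the start.

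Other lists are given by their counts, against 2.11% of all genes called higher and 1.76% lower in C2 than in EV. Of 20 genes of the ATF4 and unfolded protein response, 4 were called higher (2.11%) and 0 lower. These were the amino acid synthesis and transport genes Asns (0.27, adjusted p = 0.00422), Psat1 (0.18) and Slc7a5 (0.19) and the transcription factor gene Atf5 (0.23), and C2 exceeded WT for 10 of the 20 (6.87% of all genes). The count of 4 was 1 without EV ethanol or dexamethasone replicate 2, and 0 over the 12 sums, where the lowest adjusted p of the 4 was 0.0546 (Slc7a5). Of 24 growth factor and guidance genes, 4 were called higher (2.11%), Sema3c and Sema3a above, Sema3e at 0.37 (adjusted p = 0.0147) and the Notch ligand gene Jag1 at 0.20 (adjusted p = 0.0318), the last 2 losing the call in 4 and 7 leave-one-out fits, among them those without either C2 replicate 2. Over the 12 sums Sema3c and Sema3a kept the call. Of 21 extracellular matrix genes, 2 were called lower. Col6a2 (chr10:76595762-76623630, minus strand), a collagen VI chain, read 10.6, 11.8, 12 and 13.1 CPM in EV and 8.44, 5.36, 8.73 and 7.25 CPM in C2, below EV in all 4 (-0.67, SE 0.11, adjusted p = 0.00333). WT, at 13.9 to 15.9 CPM, and EV without IPTG, at 23.9 to 34.3 CPM, lay above EV (WT minus EV adjusted p = 0.0571). The other, the metalloproteinase inhibitor gene Timp3 (-0.28, adjusted p = 0.0296), lost the call in 6 of 8 leave-one-out fits, keeping it without replicate 1 of C2 in either treatment. Neither was called over the 12 sums (adjusted p = 0.0547 for Col6a2 and 0.0782 for Timp3).

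Of 24 interferon-stimulated genes, 1 was called higher (Oasl1) and 2 lower, the antiviral sensor gene Oas1a (-0.48, adjusted p = 0.0276) and the signalling factor gene Irf9 (-0.31, adjusted p = 0.0360), both lost in 7 of 8 leave-one-out fits, Oas1a keeping it without C2 ethanol replicate 1 and Irf9 without EV dexamethasone replicate 1. Against EV without IPTG, C2 was higher for 17 of the 24 (11.8% of all genes). Among 15 cohesin and CTCF genes only Pds5b, a cohesin-associated factor, was called (0.13, adjusted p = 0.0176), and among 21 p53 targets only Ccng1 (-0.18, adjusted p = 0.0267), both losing the call without either C2 replicate 2, either EV ethanol library or EV dexamethasone replicate 2. Over the 12 sums Oasl1 kept its call, and Oas1a, Irf9, Pds5b and Ccng1 lost theirs (adjusted p = 0.0905, 0.200, 0.135 and 0.0952). For the 21 p53 targets, C2 lay below WT for 11 (5.98% of all genes) and above it for 0. C2 was below EV without IPTG for 14 (10.6%) and above it for 2 (11.8%). The knockdown lowered 7 of them in ethanol (6.24%) and 9 in dexamethasone (8.49%). Read in the other treatment, these had C2 medians of -0.10 and -0.08 and WT medians of 0.37 and 0.22. Of 18 immediate early genes, Klf2 was called lower, and Myc was at 0.25 (adjusted p = 0.0575).

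Of the 26 glucocorticoid-induced genes, 0 were called in either direction. In dexamethasone, EV without IPTG was higher than EV with IPTG for 13 (8.49% of all genes) and lower for 3 (8.36%). In ethanol it was higher for 1 (6.24%) and lower for 5 (7.16%). C2 was below EV without IPTG for 9 of the 26 (10.6%) and above it for 2 (11.8%). Sgk1, a kinase gene induced by the receptor, read 48.6 and 47.1 CPM in EV in ethanol and 375 and 376 CPM in dexamethasone, against 43.3 and 44.9 CPM and 338 and 343 CPM in C2. Both groups read higher in dexamethasone, and C2 lay slightly lower in each treatment (adjusted p = 0.0648). There were 0 calls among 9 glucocorticoid-repressed inflammatory genes, 27 Hox genes, 19 sterol synthesis genes, 30 ribosomal protein genes, 15 mitochondrial genes, 13 NRF2 targets and 10 junction genes. For the 9 inflammatory genes, C2 was below EV without IPTG for 7 (10.6% of all genes) and above it for 2 (11.8%). Against WT, C2 was lower for 5 of the 9 (5.98%) and higher for 1 (6.87%). The marker lists gave S100a4 (-0.19, adjusted p = 0.0176) among 8 fibroblast genes and the lysozyme gene Lyz2 (-0.56, adjusted p = 0.0333) among 2 immune genes as lower, both lost in 5 leave-one-out fits, including those without EV ethanol replicate 1 and either EV dexamethasone library, and over the 12 sums (adjusted p = 0.154 and 0.106), and 0 among 7 mammary and 3 endothelial genes. The part of other cell types in the C2 differences was not tested.

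**Figure D4:**
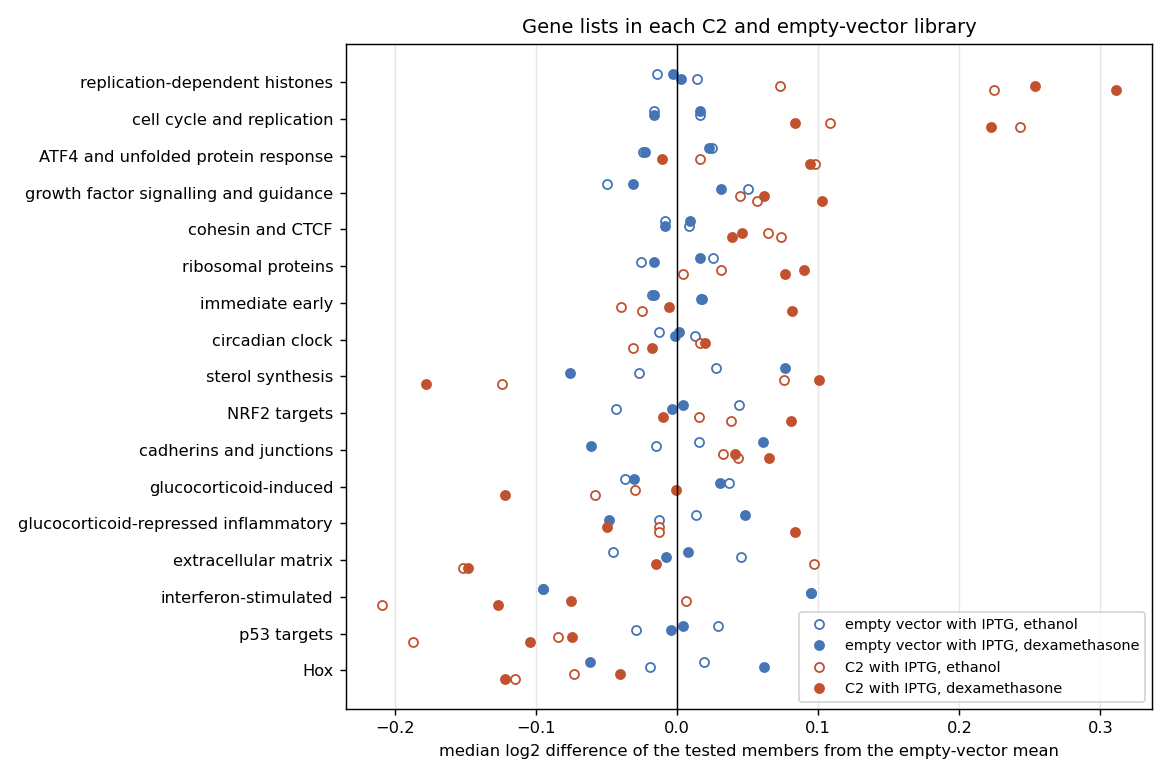
Median log2 difference of the tested members of each list drawn (the protocadherin, mitochondrial and marker lists are not) from the EV mean of the same treatment, with 1 point per library (open, ethanol; filled, dexamethasone). The C2 points lie to the right of all EV points for the histone list (0.07 to 0.31) and the cell cycle list (0.08 to 0.24). They lie between -0.21 and 0.10 for the other lists drawn. Among these, the C2 points of the cohesin and CTCF list also lie to the right of all EV points (0.04 to 0.07). Those of the p53 list lie to the left of all EV points (-0.19 to -0.07).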

How the data were processed

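Total RNA from 24 libraries was sequenced after ribosomal RNA removal with a stranded total RNA kit, per the labels' protocols. The deposited table holds whole-number read counts per gene, which the authors made with bcl2fastq 2.20, cutadapt 1.18, STAR 2.7.0f and featureCounts (Subread 2.0.3) on mm10, per the submitters' processing notes. The annotation release, strand setting and treatment of multi-mapping reads are not given in the sources used here. All 55341 gene names were found in GENCODE vM21, which supplied positions (55297 with the same coordinates).

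Genes with too few counts were removed by edgeR's filter (38407), leaving 16934. Counts were scaled by TMM and fitted in edgeR 4.0.16 (R 4.3.3) with 12 group means over 24 libraries and 12 residual degrees of freedom, using robust quasi-likelihood tests. The pooled C2 difference is the mean of the within-treatment differences, and log2 differences, their SE and adjusted p-values come from this fit (threshold 0.05). CPM values are TMM-scaled. The 2 most abundant genes, Gm26917 and Gm42418, took 12.0% to 14.1% of counts in the 8 libraries. Replicates of a group correlated at 0.992 to 0.994 and differed by more than sampling noise (chi-square per degree of freedom 8.35 to 13.5). The design text calls replicates biological but names no separate cultures, so p-values measure the spread between these samples.

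Members, lists (23 lists, 514 genes) and tests were chosen with earlier results of these data known. Named genes were the up to 12 higher and 12 lower by fold whose mean reached 1 CPM and whose C2 libraries lay both beyond both EV libraries of the same treatment, 10 and 10 by knockdown, 5 and 5 against WT, up to 4 per list, and Nipbl, Mau2 and Nr3c1. One C1C2 ethanol library, replicate 2, has a title and a treatment field that disagree, and it was grouped by title. A few genes that the rules name are not reported here. Alternatives were DESeq2 1.42.0, another scaling, filters, a replicate block, fits on fewer libraries, leaving out each library and, added later, a fit of counts summed over treatments by construct and replicate number. On simulated data for the pooled comparison with 16934 genes, 200 changes were set in genes with a mean of at least 1 CPM. The fit called 76.1% of changes set at 1.25-fold, 88.1% at 1.5-fold and 100% at 2-fold, with 4.35% of calls false. The simulated libraries were independent, unlike C2 libraries with the same number, so these shares do not give the performance of the pooled test here.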

Additional observations from a re-analysis of the deposited data

How the results depend on the processing

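The replicate numbers were not taken to pair the constructs: deviations of replicate 1 from 2 correlated at -0.09 in ethanol and 0.03 in dexamethasone between C2 and EV, and at -0.32 to 0.45 over all pairs of groups within a treatment. Between the treatments they correlated over 0.1 in 3 of 6 constructs (0.43 in C2 and 0.04 in EV). Summing both treatments by construct and replicate number, added after the data were seen, gave 66 higher, 77 lower and 1028 against WT, and Selenbp1 at 0.0076. With a replicate block the pooled calls were 666 higher and 515 lower, with 106 in ethanol and 201 in dexamethasone. Fitted within each treatment they were 645 and 515, with 99 and 202. Without the filter on low counts ethanol gave 159 calls, dexamethasone 281 and the difference between treatments 7. DESeq2 gave 59 calls in ethanol. With only the compared libraries in the fit, C2 against WT gave 1234. Restricting the raised genes to a knockdown of at least 1.5-fold moved their C2 medians to -0.10 for those chosen in ethanol and -0.089 for those chosen in dexamethasone. Leaving out 1 library gave 100 to 438 higher and 86 to 377 lower pooled calls, 14 to 44 in ethanol, 37 to 115 in dexamethasone, 0 to 0 for the difference between treatments, and 900 to 2727 against WT. The cause of these changes was not tested, beyond the loss of samples or genes each setting makes. Pooled differences that changed sign when 1 library was left out were those of uncalled knockdown genes: Cd28 (-0.32 to 0.025), Cdh17 (-0.58 to 0.13), Mgp (-2.84 to 0.35), Mirt1 (-0.26 to 0.25), Pcdhb14 (-0.016 to 0.12), Rapgef3 (-0.058 to 0.13), Rnf183 (-0.16 to 0.30), S100a7a (-0.19 to 0.50) and Selenbp1 (-0.53 to 1.10). A fit without the trends with GC content and length, added after the data were seen, gave 376 higher and 310 lower. With independent simulated libraries, 76.1% of the 1.25-fold changes set in genes of at least 1 CPM were called.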
